A study of Mus musculus with 26 samples.

Results

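The genes described here are the axon guidance ligands and receptors. They were chosen by name alone, as the protein-coding genes whose symbols belong to the semaphorins of classes 3 to 7, plexins, neuropilins, Ephs, ephrins, Slits, Robos, netrins, Unc5 receptors, Dcc and Neo1. The rule found 69 genes of the 27501 in the count table, 34 ligands and 35 receptors in 14 families. RNA was sequenced from whole brain of mice aged 6 to 12 weeks in 26 libraries. Each mouse was of a B6.FVB line and carried a transgene that fuses EGFP to the ribosomal protein Rpl10a, driven by Snap25 in the neuron line (Tg(Snap25-EGfp/Rpl10a)JD362Htz), by Aldh1L1 in the astrocyte line (Tg(Aldh1L1-EGfp/Rpl10a)JD130Htz) and by Cnp in the oligodendrocyte line (Tg(Cnp-EGfp/Rpl10a)JD368Htz). From each line there were 4 libraries of sorted nuclei (called here sorted neuron, sorted astrocyte and sorted oligodendrocyte nuclei) and 4 of presort nuclei, which are the mixed nuclei before sorting, each group with 2 females and 2 males. The other 2 libraries held cytoplasmic RNA of whole brain, 1 from a male of the astrocyte line and 1 from a female of the oligodendrocyte line. Per the design text each replicate is 1 mouse and each mouse also gave presort nuclei, but no label says which sorted and presort libraries share a mouse. Since every mouse is transgenic, no library comes from an animal without the fusion protein. Where the sort relied on that protein, cells in which the promoter does not drive it would be missed. Each sorted group is named for its line, and markers of other cell types were found in it as well.

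Guidance ligands are secreted or membrane-bound proteins that attract or repel a growing axon, and most of them act on one class of receptor. Semaphorins act through plexins, and the secreted class 3 semaphorins need a neuropilin as well. Ephrins are bound to the membrane and act on Eph receptor tyrosine kinases, Slits act on Robos, and netrins act on Dcc, Neo1 and the Unc5 receptors. In the adult brain many of the same proteins take part in synapse maintenance, in the biology of myelin and in contacts of glia with vessels.

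Levels are given as CPM, the counts of a gene per 1000000 counts of its library, and gene positions are those of GENCODE M21 (GRCm38). Each log2 fold change is given ± SE with its edgeR p-value adjusted over all genes tested, and a member was called when that was below 0.05. Values in every library are given mainly for called members whose libraries did not overlap in a comparison. For these, separation in that comparison followed from the choice and is no further result. A library with few counts reads low levels coarsely: 3 counts corresponded to between 0.672 and 22.3 CPM in the deepest and the shallowest library. Total counts were between 134313 and 4461322 per library. Sorted oligodendrocyte replicate 36 stood apart, with 7674 genes detected where the group's median was 16322, and with 33 of the 69 members detected where the group's median was 64.5. Sorted astrocyte replicate 30 was the shallowest library and detected 49 members. Markers of each sorted type were high in its own libraries. The summed level of 7 astrocyte markers was between 19514 and 22907 CPM in sorted astrocyte nuclei and at most 1469 CPM in the other sorted types, 7 oligodendrocyte markers summed to between 27270 and 36711 CPM in sorted oligodendrocyte nuclei against at most 2159 CPM, and 6 neuron markers summed to between 6377 and 8014 CPM in sorted neuron nuclei against at most 1179 CPM. Markers of ependymal and choroid plexus cells summed to between 604 and 7088 CPM in sorted astrocyte nuclei and at most 168 CPM in the other sorted types, and mural and fibroblast markers to between 298 and 444 CPM against at most 186 CPM. No one of these markers was at 0 in all libraries of a sorted type. In bulk libraries fewer cells of a type and less RNA per cell cannot be told apart.

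Together the 69 genes took between 0.473% and 0.861% of the counts of each nuclear library, and 0.130% and 0.280% of the counts of the cytoplasmic libraries. Each of them had counts in at least 1 library. After the filter on low counts 62 members were tested among the sorted types. The other 7 (Efna4, Epha2, Ntn5, Robo4, Sema3c, Sema3f and Sema3g) had between 7 and 77 counts over all 12 sorted libraries. Of the 62, 17 passed the test in no comparison of sorted types, among them Dcc, both neuropilins, Plxna1, Plxna2, Plxna3, Robo1, Slit2, Ntn1 and Unc5a.

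**Figure D1:**
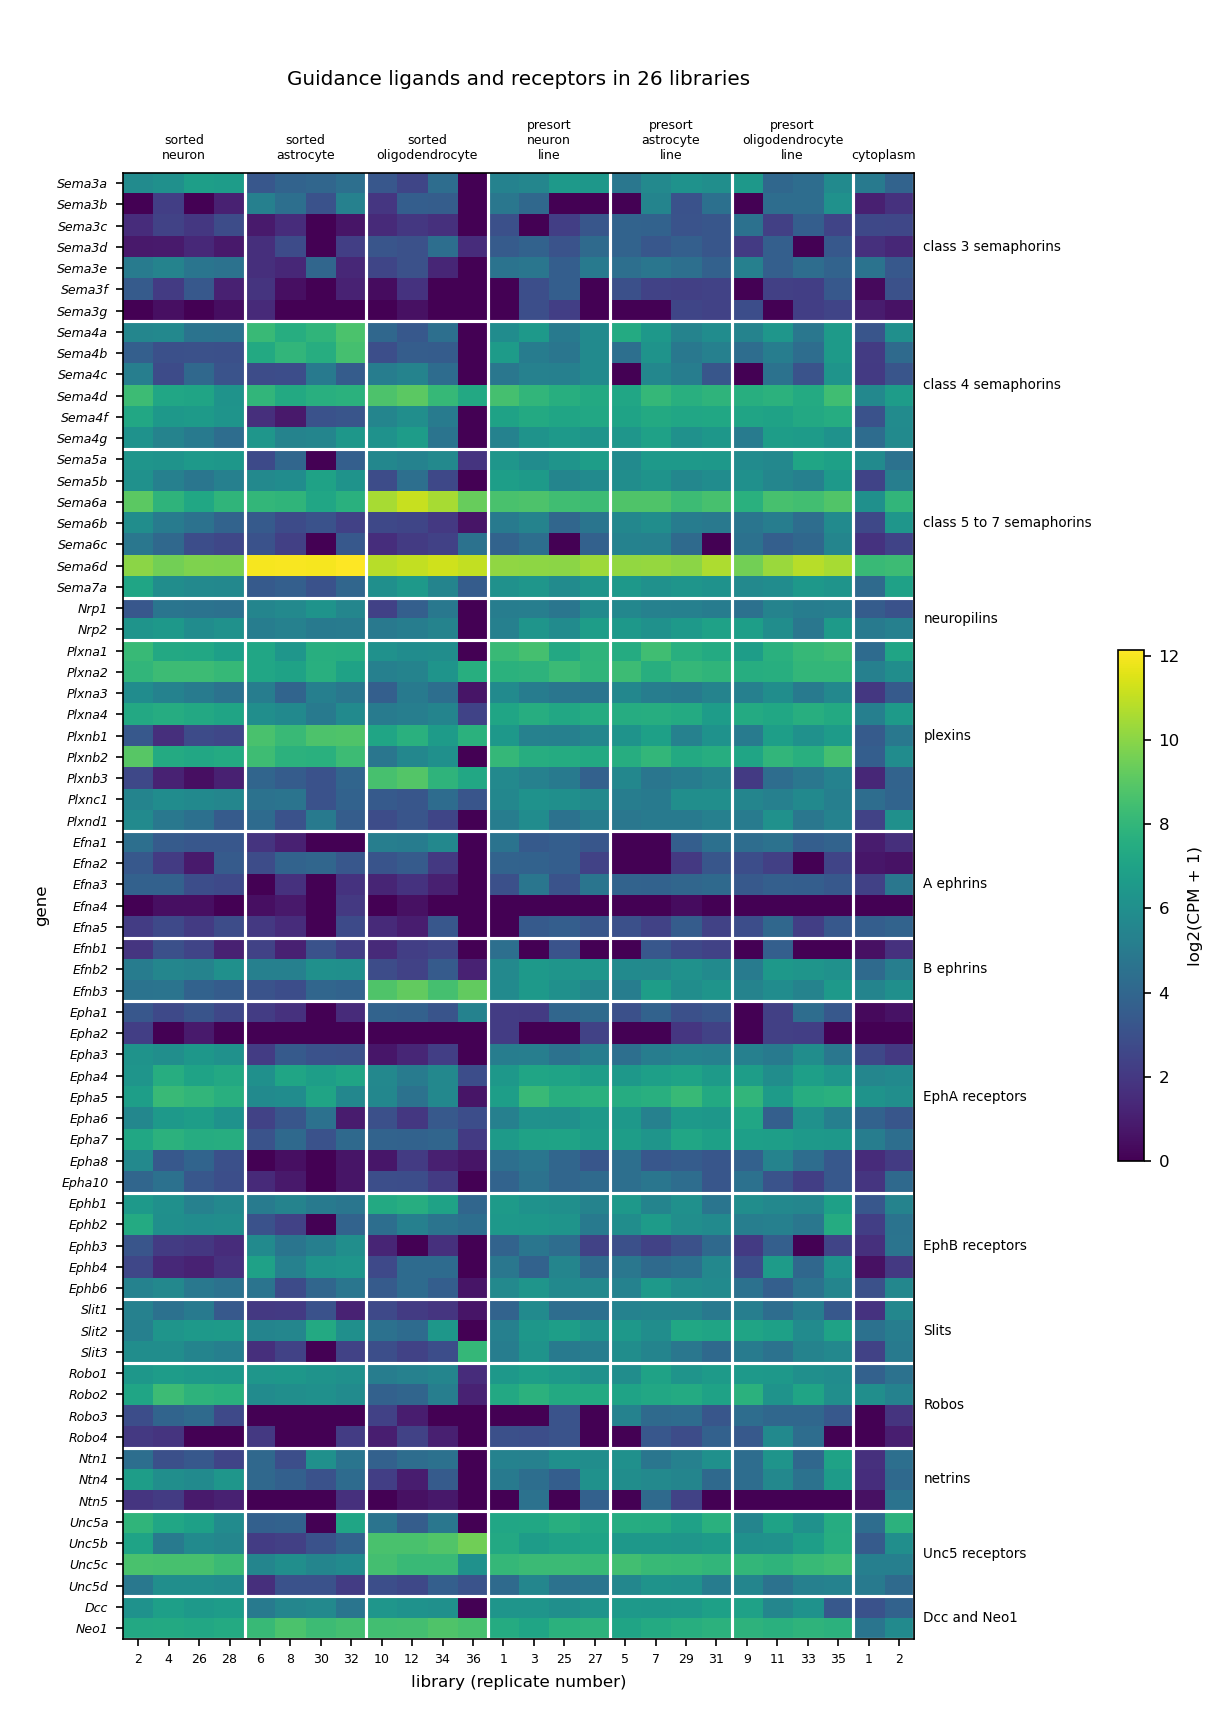
Level of each of the 69 members in each of the 26 libraries as log2(CPM + 1), with genes in rows by family and libraries in columns by group, the replicate number under each column. The row of Sema6d is brightest in the 4 libraries of sorted astrocyte nuclei, and sorted oligodendrocyte replicate 36 shows many members at 0.

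The first question was which guidance genes set sorted neuron nuclei apart from the sorted glia. In sorted neuron nuclei the EphA receptors Epha3, Epha6, Epha7 and Epha8, the netrin receptor Unc5d, Robo2 and the secreted ligands Sema3a, Sema3e, Slit1 and Ntn4 were higher than in both sorted glia, while the B plexins Plxnb1 and Plxnb3, the transmembrane semaphorin Sema6d and the netrin receptor Neo1 were lower. Against astrocyte nuclei 19 of the 62 members tested were higher and 9 lower, where 8.02% of all 13028 genes tested were higher and 11.4% lower. Against oligodendrocyte nuclei 19 members were higher and 10 lower, where 10.7% of all genes were higher and 12.4% lower. The members called higher were 30.6% of those tested in each comparison. These comparisons share the neuron libraries, so their counts are not independent. The median log2 fold change of the members was 0.84 against astrocyte nuclei and 1.16 against oligodendrocyte nuclei, and that of all genes tested was 0.05 and 0.16. Without sorted oligodendrocyte replicate 36 the members higher in neurons became 28 against astrocyte nuclei and 29 against oligodendrocyte nuclei. In that fit 2299 and 2262 of all 13559 genes tested were higher. In males alone 28 members were higher and 10 lower in each comparison. Of all 13360 genes tested 1627 were higher and 1989 lower against astrocytes, and 1839 higher and 1933 lower against oligodendrocytes. In females alone, which include that library and the shallow astrocyte replicate 30, 0 were higher and 1 lower against astrocytes, and 0 higher and 3 lower against oligodendrocytes. Of all 13209 genes tested 8 were higher and 38 lower against astrocytes, and 9 higher and 114 lower against oligodendrocytes. The calls thus changed over all genes and not in the members alone.

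In all, 11 members were higher in sorted neuron nuclei than in both glial types (5.23% of all genes tested were): Epha3, Epha6, Epha7, Epha8, Robo2, Unc5d, Sema3a, Sema3e, Sema6b, Slit1 and Ntn4. They are 6 receptors and 5 ligands. The count was 20 without sorted oligodendrocyte replicate 36, and between 6 and 7 when any 1 sorted astrocyte library was left out. The share of all genes with this pattern in those fits was not counted. Of all genes, 1045 were higher in neuron than in astrocyte nuclei in the main fit and 2299 without replicate 36. Without an astrocyte library they numbered between 684 and 932.

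Of the EphA receptors, which bind the A ephrins, Epha7 (chr4:28813131-28967499, + strand) measured 147, 217, 179 and 185 CPM in the 4 libraries of sorted neuron nuclei, 7.68, 16.8, 7.45 and 16.7 CPM in those of sorted astrocyte nuclei and 13.6, 12.9, 14.5 and 3.12 CPM in those of sorted oligodendrocyte nuclei. Every neuron library was above every glial library, which the choice of Epha7 required. Its log2 fold change was 3.60 ± 0.51 (adjusted p = 0.000118) over astrocyte and 3.69 ± 0.50 (adjusted p = 7.26e-05) over oligodendrocyte nuclei. Epha3 (chr16:63543534-63864175, - strand) measured 73.5, 63.5, 83.5 and 69.8 CPM in neuron, 3.41, 9.76, 7.45 and 7.10 CPM in astrocyte and 0.682, 1.43, 3.73 and 0 CPM in oligodendrocyte nuclei. The neuron libraries again stood above all glial ones, by a log2 fold change of 3.21 ± 0.65 (adjusted p = 0.00198) over astrocyte and 5.21 ± 0.71 (adjusted p = 7.28e-05) over oligodendrocyte nuclei. Epha8 (chr4:136929419-136956816, - strand) was low and uneven, with 50.9, 9.19, 14.1 and 6.87 CPM in neuron nuclei, where replicate 2 was high, and 0, 0.391, 0 and 0.618 CPM in astrocyte nuclei. Only 3 counts of Epha8 were found in all astrocyte libraries, against 209 in neuron libraries, and the ratio of pooled CPM was 57.2, with an exact 95% counting interval of 19.3 to 280. Replicate 2 held 135 of the 209 counts, and without it the ratio was 27.5 (9.05 to 136). Both intervals cover counting error only. Epha6 averaged 79.8 ± 26.1 CPM (SD, n = 4) in neuron nuclei, 9.03 ± 9.41 CPM in astrocyte nuclei and 6.31 ± 2.66 CPM in oligodendrocyte nuclei.

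The family as a whole leaned the same way: 5 of the 8 EphA receptors tested were higher in neuron than in astrocyte nuclei and none was lower. Against oligodendrocyte nuclei 6 were higher and 1, Epha1, was lower. Epha4, the receptor with the broadest choice of ephrins, did not differ between neuron and astrocyte nuclei beyond the test (139 ± 44.96 and 112 ± 32.5 CPM) and was lower in oligodendrocyte nuclei (34.6 ± 20.7 CPM, log2 fold change of neuron over oligodendrocyte 1.69 ± 0.50, adjusted p = 0.0221). Group means of their ligands, the A ephrins, lay between 0.119 and 29.4 CPM in the sorted types. Efna3, at 9.23 ± 3.996 CPM in neuron and 1.22 ± 0.979 CPM in oligodendrocyte nuclei, was the one A ephrin of 4 tested that was called higher in neurons.

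Robo2, a Slit receptor (chr16:73891839-74411825, - strand), measured 140.2, 318, 225 and 206 CPM in neuron nuclei, 57.6, 62.5, 67.01 and 56.5 CPM in astrocyte nuclei and 12.6, 14.3, 35.02 and 1.25 CPM in oligodendrocyte nuclei. The 3 groups did not overlap, and the level fell from neurons through astrocytes to oligodendrocytes. The log2 fold change was 1.69 ± 0.57 (adjusted p = 0.0449) for neuron over astrocyte, 3.51 ± 0.60 (adjusted p = 0.000569) for neuron over oligodendrocyte and 1.81 ± 0.57 (adjusted p = 0.0376) for astrocyte over oligodendrocyte nuclei. Robo1 averaged 91.5 ± 7.45, 76.4 ± 7.34 and 29.9 ± 19.3 CPM in the same order of groups and was not called in any of these comparisons. Robo3, a divergent Robo known from midline crossing, had 107 counts in neuron libraries and 0 in astrocyte libraries. Set at 3 counts over the astrocyte group, that is at least 29.3-fold higher in neuron nuclei, from group totals of low counts. Of the ligands, Slit1 averaged 24.9 ± 12.4 CPM in neuron, 3.70 ± 2.64 CPM in astrocyte and 3.01 ± 1.995 CPM in oligodendrocyte nuclei and was higher in neurons in both comparisons, while Slit2 was called in neither, at 77.04 ± 26.7, 79.9 ± 56.7 and 31.5 ± 37.4 CPM.

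Unc5 receptors, which mediate repulsion by netrin, differed among themselves. Unc5d (chr8:28646717-29219636, - strand) measured 27.5, 61.8, 63.1 and 56.1 CPM in neuron nuclei, 2.13, 7.42, 7.45 and 3.40 CPM in astrocyte nuclei and 6.48, 5.24, 11.9 and 7.49 CPM in oligodendrocyte nuclei. All neuron libraries were above all glial libraries, with a log2 fold change of 3.31 ± 0.61 (adjusted p = 0.000907) over astrocyte and 2.32 ± 0.55 (adjusted p = 0.00587) over oligodendrocyte nuclei. Unc5c (chr3:141465216-141834924, + strand) measured 401, 388, 382 and 311 CPM in neuron nuclei, 44.4, 62.1, 44.7 and 54.4 CPM in astrocyte nuclei and 362, 301, 298 and 69.9 CPM in oligodendrocyte nuclei. It was low in astrocytes rather than high in one type: neurons exceeded astrocytes by a log2 fold change of 2.66 ± 0.41 (adjusted p = 0.000253), astrocytes were below oligodendrocytes by -2.45 ± 0.41 (adjusted p = 0.000443), and replicate 36 was the one oligodendrocyte library near the astrocyte level. Unc5a, at 141 ± 78.5 CPM in neuron, 41.6 ± 66.4 CPM in astrocyte and 15.6 ± 12.6 CPM in oligodendrocyte nuclei, was not called.

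Among netrins Ntn4, a secreted netrin also found in basement membranes (chr10:93640681-93747207, + strand), measured 108, 62.2, 55.6 and 83.2 CPM in neuron nuclei, 16.2, 12.1, 7.45 and 17.9 CPM in astrocyte nuclei and 3.75, 0.953, 10.1 and 0 CPM in oligodendrocyte nuclei. Neuron libraries were above all others, with a log2 fold change of 2.23 ± 0.71 (adjusted p = 0.0353) over astrocyte and 4.05 ± 0.76 (adjusted p = 0.00120) over oligodendrocyte nuclei. Ntn1, the classical attractant, measured 4.58 to 19.6, 6.64 to 67.01 and 0 to 21.98 CPM in neuron, astrocyte and oligodendrocyte nuclei and was not called. Its attractive receptor Dcc was not called either, at 95.8 ± 17.99, 38.7 ± 12.5 and 54.8 ± 37.04 CPM. Neo1, the relative of Dcc that also binds repulsive guidance molecules, was lower in neuron nuclei than in both glial types, with 160.2, 167, 156 and 169.8 CPM in neuron, 291, 407, 320.1 and 364 CPM in astrocyte and 347, 366, 438 and 389 CPM in oligodendrocyte nuclei and log2 fold changes of -1.25 ± 0.32 (adjusted p = 0.00917) and -1.67 ± 0.32 (adjusted p = 0.00129).

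Ephb2 (chr4:136647539-136835988, - strand), a receptor for B ephrins at synapses, measured 168, 63.9, 58.5 and 60.7 CPM in neuron nuclei, where replicate 2 was high, and 7.25, 4.30, 0 and 13.6 CPM in astrocyte nuclei, with a log2 fold change of 3.33 ± 0.65 (adjusted p = 0.00153). In oligodendrocyte nuclei it measured 20.1, 37.7, 24.6 and 19.97 CPM, above all astrocyte libraries and below all neuron libraries. The difference between oligodendrocyte and astrocyte nuclei was called, and that between neuron and oligodendrocyte nuclei was not. Among the secreted class 3 semaphorins Sema3a, a repellent read through neuropilin 1 and A plexins, averaged 84.2 ± 26.2 CPM in neuron nuclei against 14.6 ± 4.83 CPM in astrocyte and 8.16 ± 8.08 CPM in oligodendrocyte nuclei. Sema3e, which acts on Plxnd1 without a neuropilin, averaged 30.2 ± 8.36, 5.03 ± 6.58 and 3.35 ± 3.22 CPM. Of their receptors, Nrp1 and Nrp2 were not called, and Plxnd1 was called only for neuron over oligodendrocyte nuclei (28.6 ± 19.2 and 4.77 ± 3.45 CPM).

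Gene span moved with these calls. The 62 members tested spanned a median of 107 kb, and all genes tested 25.9 kb. Of the genes over 200 kb, 27.1% of all tested were higher in neuron than in astrocyte nuclei, and 8 of 18 members were. Of those between 10 and 50 kb, 4.73% of all were higher, and 6 of 24 members were.

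**Figure D2:**
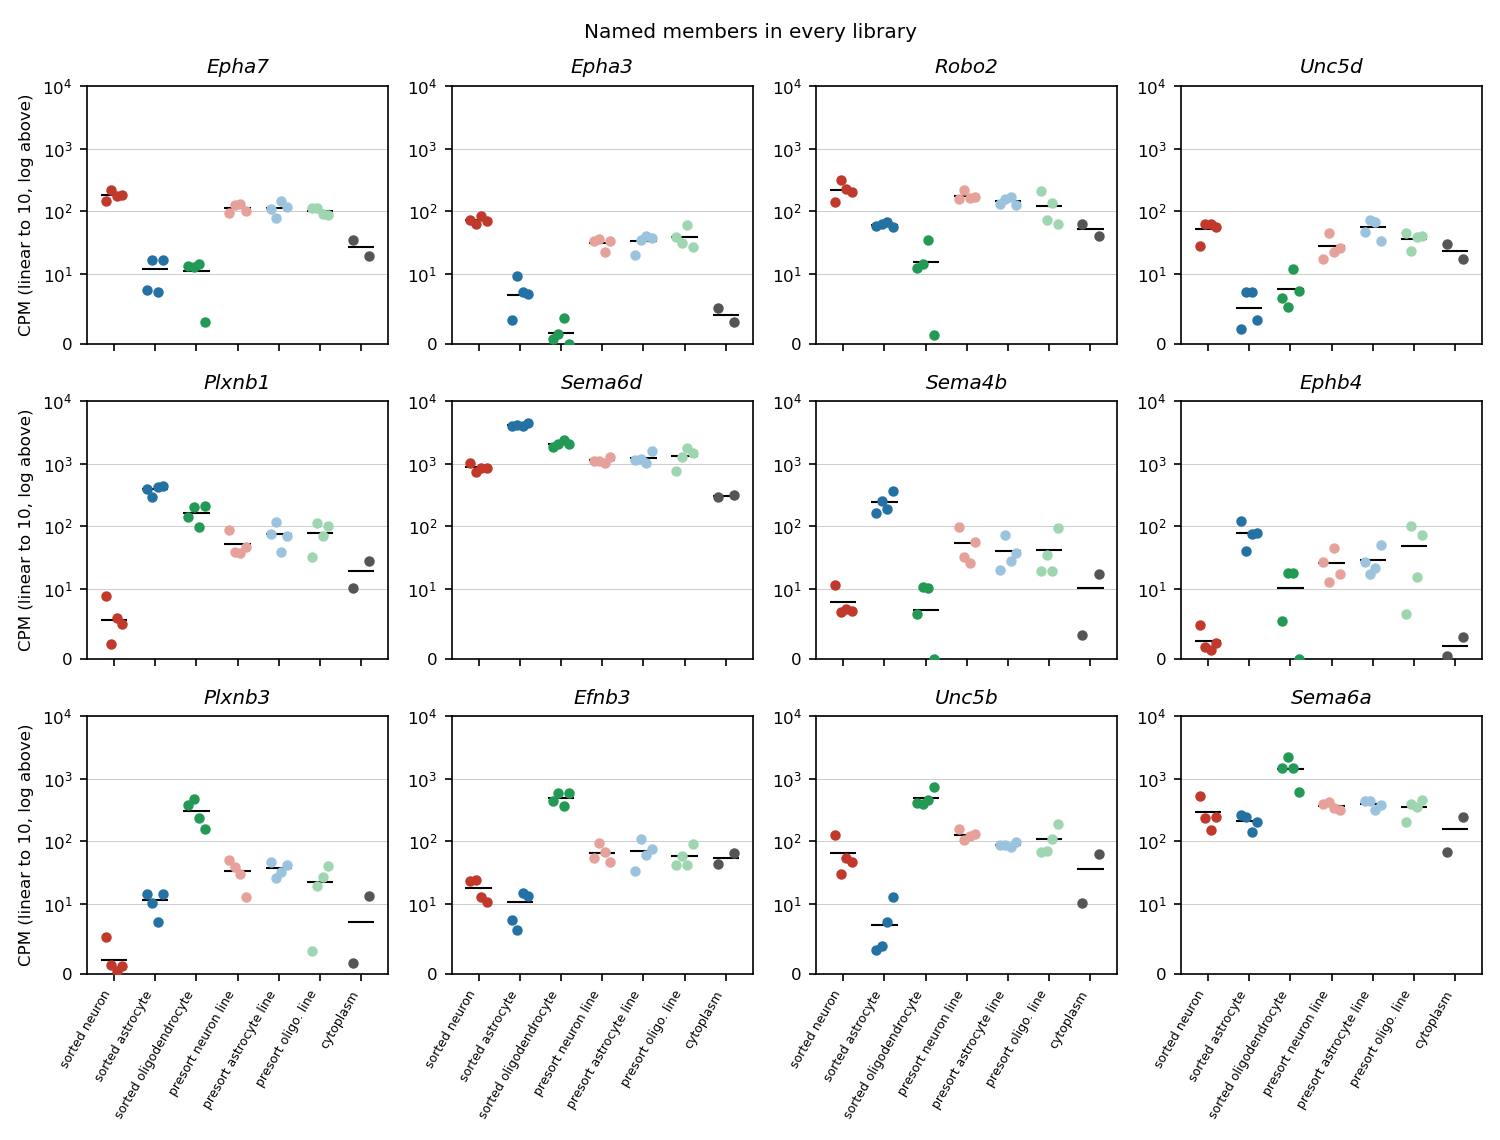
CPM of 12 named members in every library of the 7 groups, 1 point per library and a bar at the group mean, on an axis that is linear up to 10 CPM and logarithmic above. Among the 3 sorted groups the genes of the top row are highest in neuron nuclei, those of the middle row in astrocyte nuclei and those of the bottom row in oligodendrocyte nuclei.

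To show the members on which the glial comparisons turn, the stretch from 250 to 51 bases upstream of the RefSeq start (GRCm38.p6) is printed 5′ to 3′ for Plxnb1 and Sema4b, whose levels among the sorted types were highest in astrocyte nuclei (for Plxnb1 without a call over oligodendrocytes), and for Plxnb3 and Unc5b, whose sorted levels were highest in oligodendrocyte nuclei. Capitals mark each match of 3 short motifs on either strand: ACAAAG (a core read by SoxE factors), CAGCTG (an E-box) and GGGCGG (a GC box).
Plxnb1, chr9:109095186-109095385, + strand: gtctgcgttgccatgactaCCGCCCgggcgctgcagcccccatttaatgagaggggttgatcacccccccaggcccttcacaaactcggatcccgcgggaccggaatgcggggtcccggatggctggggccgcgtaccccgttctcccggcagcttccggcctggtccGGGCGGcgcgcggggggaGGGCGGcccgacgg
Sema4b, chr7:80186620-80186819, + strand: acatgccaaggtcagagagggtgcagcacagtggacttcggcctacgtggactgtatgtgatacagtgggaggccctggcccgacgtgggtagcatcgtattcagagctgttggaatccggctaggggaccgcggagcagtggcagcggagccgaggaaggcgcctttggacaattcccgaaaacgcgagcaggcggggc
Plxnb3, chrX:73756853-73757052, + strand: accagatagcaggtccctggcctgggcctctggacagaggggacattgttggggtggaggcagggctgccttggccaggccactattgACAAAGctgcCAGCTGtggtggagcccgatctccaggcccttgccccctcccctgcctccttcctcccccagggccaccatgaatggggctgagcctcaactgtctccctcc
Unc5b, chr10:60831632-60831831, - strand: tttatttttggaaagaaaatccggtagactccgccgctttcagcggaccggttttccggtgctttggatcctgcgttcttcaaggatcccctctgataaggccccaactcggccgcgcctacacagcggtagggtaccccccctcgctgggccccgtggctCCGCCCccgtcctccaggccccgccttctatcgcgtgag
The stretch of Plxnb1 held 3 GC boxes, that of Unc5b 1, that of Plxnb3 1 SoxE core and 1 E-box and that of Sema4b no match. Over all 32851 RefSeq promoters in windows of the same length, 13.6% held ACAAAG, 10.3% CAGCTG and 24.6% GGGCGG. Among the promoters of protein-coding genes the shares were 12.6%, 9.61% and 31.9%. The 75 promoters of the 59 members with an entry held them in 8%, 13.3% and 56%. A match is a string of letters and not a measured binding site.

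The class 4 semaphorins Sema4a and Sema4b and the EphB receptors Ephb3 and Ephb4 were higher in sorted astrocyte nuclei than in both other sorted types, and Unc5b and Sema4f were lower. Plxnb1 and Sema6d were higher there than in neuron nuclei. Of 62 members tested 9 were higher and 12 lower in astrocyte than in oligodendrocyte nuclei, where 9.62% of all genes were higher and 7.48% lower, and the median log2 fold change was 0.26 among members and 0.11 among all genes. Without sorted oligodendrocyte replicate 36 these counts were 17 and 17, in males alone 13 and 15, and in females alone 0 and 2. Over all genes they were 1979 and 1589 of 13559, 1648 and 1373 of 13360, and 17 and 50 of 13209. Against both other sorted types 4 members were higher in astrocytes (5.83% of all genes were) and 5 lower (1.3% of all genes were). Those higher were Sema4a, Sema4b, Ephb3 and Ephb4, and those lower were Sema4f, Sema7a, Ephb2, Unc5b and Unc5c. Without replicate 36 they numbered 7 and 10, and the 5 lower became 2 without astrocyte replicate 6 or 8 and 3 without astrocyte replicate 30. The share of all genes with these patterns in those fits was not counted. Of all genes, 975 were lower in astrocyte than in oligodendrocyte nuclei in the main fit, and between 689 and 787 without each of these astrocyte libraries.

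Plxnb1 (chr9:109095389-109119917, + strand), a receptor of class 4 semaphorins, measured 398, 297, 424 and 445 CPM in astrocyte nuclei, 139.8, 205, 98.7 and 210.3 CPM in oligodendrocyte nuclei and 9.05, 2.09, 5.81 and 4.96 CPM in neuron nuclei. No group overlapped another, and neurons were lowest. The log2 fold change was -6.29 ± 0.58 (adjusted p = 3.60e-06) for neuron over astrocyte and -5.35 ± 0.56 (adjusted p = 5.42e-06) for neuron over oligodendrocyte nuclei, and the difference between the glial types was not called (0.94 ± 0.46, adjusted p = 0.199). Plxnb2, a close relative, had another order, with 246 ± 167 CPM in neuron, 269 ± 62.8 CPM in astrocyte and 34.98 ± 28.6 CPM in oligodendrocyte nuclei, and was lower in oligodendrocytes than in both other types.

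Sema4b (chr7:80186841-80226527, + strand), a transmembrane semaphorin, measured 166, 253, 186 and 372 CPM in astrocyte nuclei against 11.7, 6.68, 7.06 and 6.87 CPM in neuron and 6.48, 10.96, 10.4 and 0 CPM in oligodendrocyte nuclei. The astrocyte libraries stood above all others, by a log2 fold change of 4.99 ± 0.71 (adjusted p = 0.000108) over oligodendrocyte nuclei, and neurons were below astrocytes by -5.09 ± 0.71 (adjusted p = 0.000103). Sema4a (chr3:88435959-88461182, - strand) measured 300.0, 187, 246 and 411 CPM in astrocyte, 46.4, 48.9, 23.3 and 22.5 CPM in neuron and 15.3, 9.06, 20.9 and 0 CPM in oligodendrocyte nuclei. Astrocytes were again above every other library, with a log2 fold change of 4.55 ± 0.74 (adjusted p = 0.000348) over oligodendrocyte nuclei and -3.20 ± 0.69 (adjusted p = 0.00324) for neuron over astrocyte nuclei. Sema4d, the ligand best known for Plxnb1, ran otherwise: it averaged 349 ± 166 CPM in oligodendrocyte, 206 ± 36.6 CPM in astrocyte and 168 ± 105 CPM in neuron nuclei and was called only for neuron below oligodendrocyte nuclei (-1.38 ± 0.46, adjusted p = 0.0383). Sema4f was low in astrocyte nuclei, with 2.13, 0.781, 7.45 and 8.03 CPM there, 156, 88.2, 96.7 and 77.4 CPM in neuron nuclei and 45.01, 61.98, 31.7 and 0 CPM in oligodendrocyte nuclei.

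Sema6d (chr2:124089969-124667770, + strand), a ligand of A plexins, measured 3936, 4188, 4013 and 4476 CPM in astrocyte nuclei, 1827, 2051, 2403 and 2037 CPM in oligodendrocyte nuclei and 1029, 741, 869 and 856 CPM in neuron nuclei. The groups did not overlap, and the replicates of each lay close together. The log2 fold change was -2.41 ± 0.28 (adjusted p = 1.90e-05) for neuron over astrocyte and -1.67 ± 0.27 (adjusted p = 0.000313) for neuron over oligodendrocyte nuclei. The difference between astrocyte and oligodendrocyte nuclei was not called (0.74 ± 0.26, adjusted p = 0.0670). Of its receptors in the A plexin family, Plxna1 averaged 179.7 ± 76.3, 151 ± 52.3 and 47.4 ± 31.9 CPM in neuron, astrocyte and oligodendrocyte nuclei, Plxna4 157 ± 18.2, 50.3 ± 14.5 and 28.6 ± 16.8 CPM, and of the A plexins Plxna4 alone was called in a comparison of sorted types, higher in neurons than in oligodendrocytes. Of the exon bases of Plxna1 in the annotation, 10.7% are shared with a gene on the opposite strand that is also in the table, so part of its counts is uncertain.

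Sema5b (chr16:35541145-35664732, + strand), a transmembrane semaphorin with thrombospondin repeats, measured 51.6, 59.4, 127 and 75.04 CPM in astrocyte nuclei and 6.14, 20.5, 5.22 and 0 CPM in oligodendrocyte nuclei, groups that did not overlap (log2 fold change 3.06 ± 0.78, adjusted p = 0.0103), and 68.2, 38.02, 25.7 and 37.8 CPM in neuron nuclei. Its relative Sema5a was low in astrocytes instead (8.03 ± 6.60 CPM, against 82.8 ± 8.58 CPM in neurons and 35.2 ± 22.2 CPM in oligodendrocytes).

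Ephb4 (chr5:137350109-137378669, + strand), the receptor of ephrin B2 known from veins, measured 121, 39.8, 74.5 and 79.4 CPM in astrocyte nuclei, 4.90, 1.67, 1.25 and 2.29 CPM in neuron nuclei and 5.46, 18.1, 17.9 and 0 CPM in oligodendrocyte nuclei. Ephb3 (chr16:21204755-21223305, + strand) measured 54.6, 25.4, 37.2 and 62.7 CPM in astrocyte, 8.29, 3.34, 2.91 and 1.91 CPM in neuron and 1.36, 0, 2.24 and 0 CPM in oligodendrocyte nuclei. Both were above all other sorted libraries in each astrocyte library, with a log2 fold change of astrocyte over oligodendrocyte nuclei of 2.80 ± 0.80 (adjusted p = 0.0208) for Ephb4 and 5.33 ± 0.86 (adjusted p = 0.000307) for Ephb3, and of neuron over astrocyte nuclei of -5.09 ± 0.90 (adjusted p = 0.000676) and -3.62 ± 0.75 (adjusted p = 0.00238). Mural and fibroblast markers moved in the same direction between the sorted types (298 to 444 CPM summed in astrocyte nuclei), while 5 endothelial markers summed to between 17.3 and 72.1 CPM there and to between 0 and 107 CPM in oligodendrocyte nuclei, and the part of such cells in the Ephb4 level was not tested. The secreted Sema3b rose in astrocyte over neuron nuclei (26.2 ± 14.99 against 1.23 ± 1.77 CPM) beside the ependymal, choroid plexus, mural and fibroblast markers, and their part in it was not tested.

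Efnb2, the ephrin that Ephb4 binds (chr8:8617434-8661242, - strand), measured 38.4, 37.5, 67.01 and 64.5 CPM in astrocyte nuclei, 32.8, 45.96, 41.5 and 67.1 CPM in neuron nuclei and 6.14, 4.29, 10.1 and 1.25 CPM in oligodendrocyte nuclei. Neurons and astrocytes overlapped, and oligodendrocytes lay below both, with a log2 fold change of 2.75 ± 0.55 (adjusted p = 0.00174) for neuron and 3.05 ± 0.56 (adjusted p = 0.000890) for astrocyte over oligodendrocyte nuclei.

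Sorted oligodendrocyte nuclei held a small set of members at high levels: the receptors Plxnb3 and Unc5b, the ligands Efnb3 and Sema6a, and at a low level Epha1. These 5 were higher than in both other sorted types (Epha1 only with replicate 36 in the fit), where 5.38% of all genes tested were. Lower than in both were 4 members, Efnb2, Epha4, Plxnb2 and Robo2 (2.66% of all genes were). Without replicate 36 these counts were 7 and 10, and the 4 lower became 2 without any 1 astrocyte library, without neuron replicate 4, 26 or 28 or without oligodendrocyte replicate 10. The members lower in neurons than in both glial types were Neo1, Plxnb1, Plxnb3 and Sema6d, 4 where 4.51% of all genes were, and 7 without replicate 36. In the fits that leave out a library the share of all genes with these patterns was not counted.

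Plxnb3 (chrX:73757090-73772514, + strand), a B plexin that binds Sema5a, measured 381, 474, 235 and 155 CPM in oligodendrocyte nuclei, 14.5, 10.54, 7.45 and 14.5 CPM in astrocyte nuclei and 5.28, 1.25, 0.415 and 1.14 CPM in neuron nuclei. The groups did not overlap, and each step was large. The log2 fold change was -7.54 ± 0.72 (adjusted p = 2.35e-06) for neuron over oligodendrocyte, -4.79 ± 0.64 (adjusted p = 5.81e-05) for astrocyte over oligodendrocyte and -2.75 ± 0.63 (adjusted p = 0.00480) for neuron over astrocyte nuclei. Efnb3 (chr11:69554092-69560205, - strand), a B ephrin known as a midline barrier in the spinal cord, measured 448, 587, 374 and 585 CPM in oligodendrocyte nuclei, 23.7, 24.2, 12.9 and 10.7 CPM in neuron nuclei and 7.68, 6.25, 14.9 and 13.6 CPM in astrocyte nuclei. All oligodendrocyte libraries, replicate 36 included, were far above the rest, by a log2 fold change of -5.26 ± 0.51 (adjusted p = 2.35e-06) for neuron and -5.94 ± 0.54 (adjusted p = 1.72e-06) for astrocyte over oligodendrocyte nuclei. The third B ephrin, Efnb1, was low throughout, with group means between 2.59 and 4.15 CPM in the sorted types.

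Unc5b (chr10:60762593-60831581, - strand), a netrin receptor, measured 403, 396, 452 and 734 CPM in oligodendrocyte nuclei, 129, 30.1, 55.2 and 46.5 CPM in neuron nuclei and 3.41, 3.91, 7.45 and 12.97 CPM in astrocyte nuclei. Each group was separate from the others, with a log2 fold change of -6.46 ± 0.71 (adjusted p = 1.05e-05) for astrocyte and -3.41 ± 0.59 (adjusted p = 0.000637) for neuron over oligodendrocyte nuclei. Sema6a (chr18:47235598-47368870, - strand), a ligand of Plxna2 and Plxna4, measured 1483, 2213, 1482 and 624 CPM in oligodendrocyte nuclei, 261, 245, 141 and 206 CPM in astrocyte nuclei and 539.8, 234, 149 and 241 CPM in neuron nuclei. The lowest oligodendrocyte library, replicate 36, was still above the highest of the others, neuron replicate 2. Its log2 fold change was -2.92 ± 0.45 (adjusted p = 0.000229) for astrocyte and -2.64 ± 0.45 (adjusted p = 0.000504) for neuron over oligodendrocyte nuclei. Epha1 measured 13.3, 12.4, 7.82 and 39.9 CPM in oligodendrocyte, 8.67, 5.43, 7.89 and 4.96 CPM in neuron and 3.41, 2.34, 0 and 1.85 CPM in astrocyte nuclei. Its highest library was replicate 36, and oligodendrocytes and neurons overlapped. Without replicate 36 Epha1 was still called over astrocytes (-2.26 ± 0.52 for astrocyte over oligodendrocyte nuclei, adjusted p = 0.00283) and no longer over neurons (-1.002 ± 0.451 for neuron over oligodendrocyte nuclei, adjusted p = 0.0942). In the annotation 236 of its exon bases are shared with Zyx on the opposite strand, so its counts are uncertain. Slit3 was called lower in astrocyte than in oligodendrocyte nuclei, but its 6.48, 4.29, 6.33 and 266 CPM in the 4 oligodendrocyte libraries show that replicate 36 alone carried the level. Without it Slit3 was not called (-0.76 ± 0.45, adjusted p = 0.248).

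**Figure D3:**
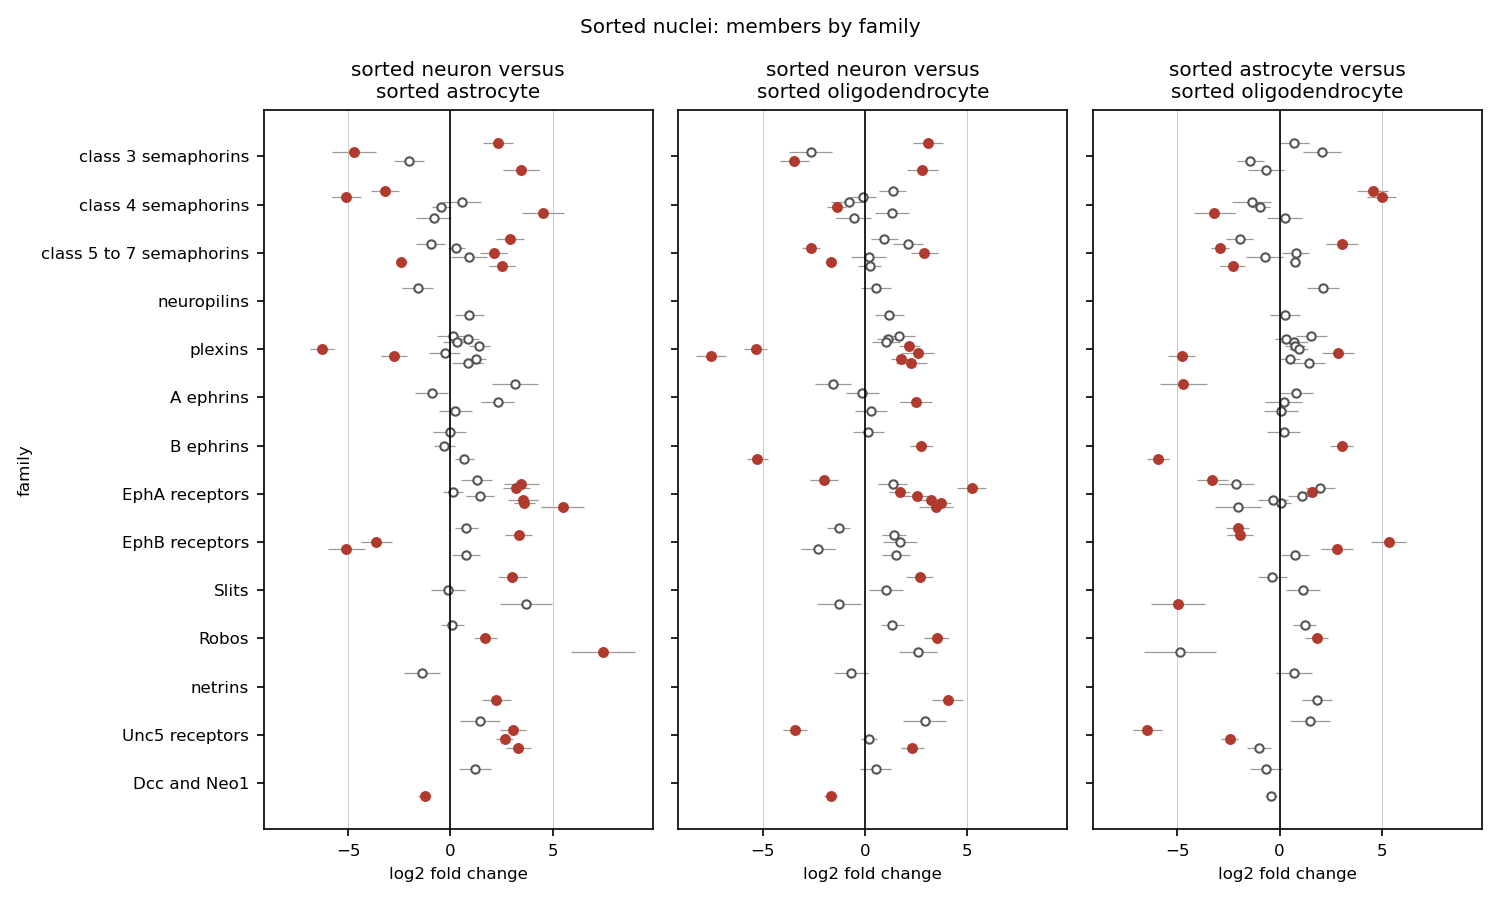
Log2 fold change (± SE) of each member tested in the 3 comparisons of sorted nuclei, by family, with filled points for an adjusted p below 0.05. Most EphA receptors lie to the right in both neuron comparisons, while the plexins spread from Plxnb3 and Plxnb1 on the far left to positive values.

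Beside the ligands and receptors, 48 other genes of axon guidance were counted, such as receptor partners, collapsin response mediators and cytoskeletal effectors. Of the 46 tested 10 were higher and 6 lower in neuron than in astrocyte nuclei, where 8.02% of all genes were higher and 11.4% lower. Of the same 46, 15 were higher and 12 lower in neuron than in oligodendrocyte nuclei (10.7% and 12.4% of all genes), and 10 higher and 7 lower in astrocyte than in oligodendrocyte nuclei (9.62% and 7.48%). Rgma, the repulsive ligand of Neo1, was lower in neuron than in astrocyte nuclei (log2 fold change -4.49 ± 0.54, adjusted p = 3.07e-05), the direction of Neo1 itself. L1cam, an adhesion molecule that joins the neuropilin receptor of Sema3a, was higher in neurons (3.95 ± 0.59, adjusted p = 0.000176). Dock1, an exchange factor downstream of Dcc, was lower in neurons than in both glial types (-5.01 ± 0.55 against astrocytes and -5.83 ± 0.57 against oligodendrocytes).

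Sorted and presort nuclei of the same line were compared next, which asks what the sort changed. In the astrocyte line most of the EphA and Unc5 receptors, Slits and Robos tested were lower after the sort and Sema6d, Plxnb1, Sema4a and Sema4b higher. In the neuron line the B plexins Plxnb1 and Plxnb3 and Sema4b were lower after the sort, and in the oligodendrocyte line Plxnb3, Efnb3, Sema6a and Unc5b were higher. In the neuron line 1 of 58 members tested was higher and 7 were lower in sorted nuclei, where 1.26% of all genes were higher and 5.08% lower. In the astrocyte line 8 of 58 were higher and 29 lower, where 13.7% of all genes were higher and 15.4% lower. In the oligodendrocyte line 5 of 52 were higher and 5 lower, where 5.12% of all genes were higher and 3.24% lower. The median log2 fold change of members was -0.06, -1.21 and -1.21 in the 3 lines, and that of all genes tested was 0.07, -0.03 and -0.07. In the oligodendrocyte line leaving out sorted replicate 36 gave 10 higher and 15 lower of 38 tested, leaving out presort replicate 33 or 35 gave none lower of 60 or 61 tested, and DESeq2 gave 5 higher and 18 lower. Over all genes 1022 were higher and 1026 lower of 6116 without sorted replicate 36. Without presort replicate 33 or 35, 55 of 11521 and 53 of 11633 were lower. DESeq2 called 582 higher and 938 lower of 9519. In the astrocyte line 13 of 33 tested were lower without presort replicate 29, the 1 deep presort library, and between 17 and 19 of 39 without sorted replicate 6, 8 or 32, so fewer members passed the filter in these fits than the 58 above. Of all genes 943 of 5222 were lower without presort replicate 29, and between 1039 and 1104 without each of these sorted libraries. In the neuron line 4 of 44 tested were lower without sorted replicate 4, 26 or 28 and 11 of 44 without sorted replicate 2. Of all genes between 295 and 314 were lower in the former fits, and 789 of 6333 without sorted replicate 2. In males alone the counts of higher and lower members were 0 and 1 in the neuron line, 5 and 18 in the astrocyte line and 9 and 20 in the oligodendrocyte line. In females alone they were 1 and 8, 6 and 28, and 0 and 0. Over all genes the counts were 0 and 127, 728 and 802, and 1082 and 1070 in males. Those in females were 240 and 552, 1151 and 1449, and 0 and 0. Median total counts of the presort groups were between 234526 and 278948 and those of the sorted groups between 2390944 and 2514826, so a low presort level rests on few counts.

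In the neuron line Epha3 was the member called higher, with 73.5, 63.5, 83.5 and 69.8 CPM in sorted and 34.1, 35.9, 22.7 and 34.1 CPM in presort nuclei and a log2 fold change of 1.31 ± 0.30 (adjusted p = 0.0143). It was not called without presort replicate 25 or without sorted replicate 26. Plxnb3 measured 5.28, 1.25, 0.415 and 1.14 CPM in sorted and 51.1, 39.2, 30.2 and 12.8 CPM in presort nuclei (-3.85 ± 0.66, adjusted p = 0.00192). Plxnb1 measured 9.05, 2.09, 5.81 and 4.96 CPM in sorted and 88.6, 39.2, 37.8 and 46.9 CPM in presort nuclei (-3.13 ± 0.48, adjusted p = 0.000815). Sorted and presort libraries did not overlap for any of these, which the choice of these members required. Sema4b fell from 98.9, 32.7, 26.5 and 55.4 CPM in presort to 11.7, 6.68, 7.06 and 6.87 CPM in sorted nuclei (-2.59 ± 0.45, adjusted p = 0.00211). The others called lower were Efnb3, Ntn1, Ephb4 and Sema3d. Oligodendrocyte markers summed to between 4921 and 6055 CPM in presort and to between 1274 and 1729 CPM in sorted nuclei, and astrocyte markers to between 1767 and 3476 CPM and between 530 and 862 CPM. Markers of endothelial cells (101 to 198 CPM summed in presort, 9.54 to 30.2 CPM in sorted nuclei) and of oligodendrocyte precursors (283 to 337 CPM and 13.4 to 32.4 CPM) were also lower after the sort, and the part of these cells in the fall of the 7 members was not tested.

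In the astrocyte line the members called higher were Efna2, Ephb3, Ephb4, Neo1, Plxnb1, Sema4a, Sema4b and Sema6d. Sema6d measured 3936, 4188, 4013 and 4476 CPM in sorted and 1164, 1171, 1030.5 and 1594 CPM in presort nuclei (1.97 ± 0.24, adjusted p = 2.42e-06). Plxnb1 measured 398, 297, 424 and 445 CPM in sorted and 74.4, 117, 39.1 and 71.3 CPM in presort nuclei (2.70 ± 0.33, adjusted p = 2.74e-06), and Sema4b 166, 253, 186 and 372 CPM and 20.3, 73.7, 27.8 and 37.8 CPM (2.94 ± 0.39, adjusted p = 6.98e-06). No sorted library overlapped a presort one, which the choice of these members required. Among those lower, Sema4f measured 2.13, 0.781, 7.45 and 8.03 CPM in sorted and 129, 165, 142 and 147 CPM in presort nuclei (-4.92 ± 0.50, adjusted p = 3.44e-07). Unc5c measured 44.4, 62.1, 44.7 and 54.4 CPM in sorted and 345, 290.5, 278 and 256 CPM in presort nuclei (-2.23 ± 0.27, adjusted p = 2.51e-06), and Epha7 7.68, 16.8, 7.45 and 16.7 CPM and 108, 78.04, 145 and 117 CPM (-2.85 ± 0.37, adjusted p = 5.38e-06). By family, 6 of 7 EphA receptors tested, 3 of 4 Unc5 receptors, 2 of 3 Slits and 2 of 3 Robos were lower in sorted astrocyte nuclei, and none of these families had a member called higher. Robo3 had 72 counts in presort and 0 in sorted nuclei, at least 51.1-fold lower when the sorted group is set at 3 counts. Presort replicate 29 alone held 60 of the 72 counts. Robo3 measured 40.6, 17.3, 18.3 and 8.39 CPM in these presort libraries, but 0, 0, 7.56 and 0 CPM in presort nuclei of the neuron line. In those of the oligodendrocyte line it measured 19.1, 15.4, 15.3 and 9.10 CPM, so the presort level differed between lines on few counts. Neuron markers summed to between 3649 and 4544 CPM in these presort nuclei and to between 327 and 659 CPM after the sort, and their part in these values was not tested.

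In the oligodendrocyte line Plxnb3 measured 381, 474, 235 and 155 CPM in sorted and 3.19, 19.2, 26.8 and 40.97 CPM in presort nuclei (4.29 ± 0.66, adjusted p = 0.00345). Efnb3 measured 448, 587, 374 and 585 CPM in sorted and 41.4, 57.7, 42.1 and 91.03 CPM in presort nuclei (3.76 ± 0.53, adjusted p = 0.00191), and Sema6a 1483, 2213, 1482 and 624 CPM and 204, 393, 352 and 455 CPM (2.51 ± 0.40, adjusted p = 0.00425). Every sorted library was above every presort library, which the choice of these members required. Unc5b and Neo1 were called higher as well. Among those lower, Epha3 measured 0.682, 1.43, 3.73 and 0 CPM in sorted and 38.3, 30.8, 61.3 and 27.3 CPM in presort nuclei (-4.22 ± 0.87, adjusted p = 0.0140). Epha7 measured 13.6, 12.9, 14.5 and 3.12 CPM in sorted and 115, 112, 91.9 and 86.5 CPM in presort nuclei (-2.76 ± 0.55, adjusted p = 0.0119), and Efnb2 6.14, 4.29, 10.1 and 1.25 CPM and 31.9, 88.5, 80.4 and 68.3 CPM (-3.17 ± 0.67, adjusted p = 0.0153). Here too the groups did not overlap, which the choice of these members required. Sema6b and Plxna4 were the others called lower, and without sorted replicate 36 Epha3 and Sema6b did not pass the filter on low counts. Neuron markers summed to between 3199 and 4338 CPM in these presort nuclei and to between 316 and 1179 CPM after the sort, and their part in the members called lower was not tested.

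**Figure D4:**
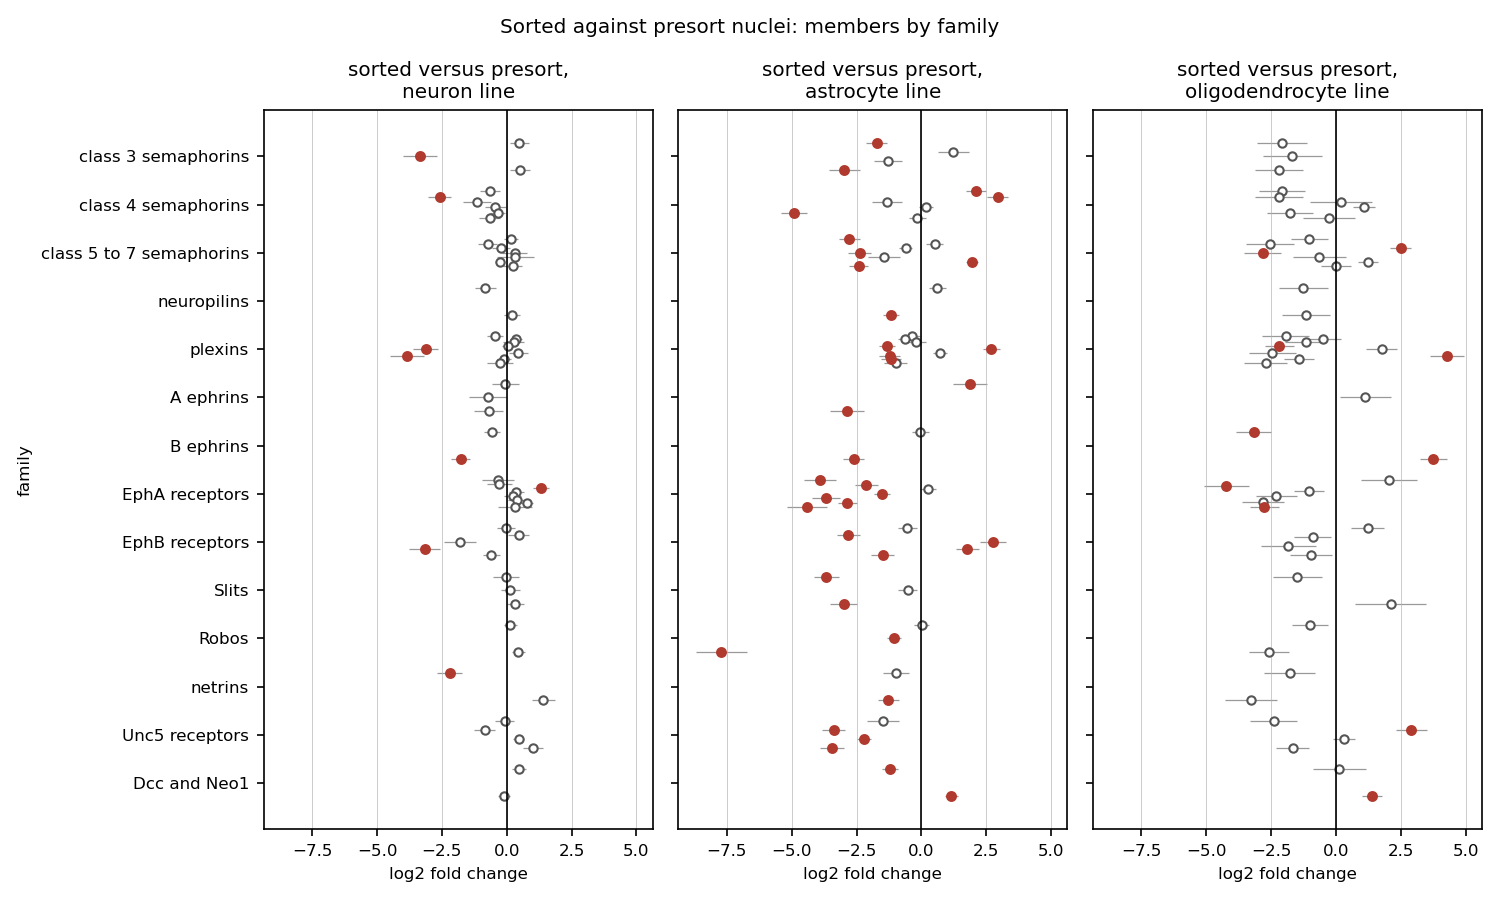
Log2 fold change (± SE) of sorted over presort nuclei for each member tested in the 3 lines, by family, on one scale, with filled points for an adjusted p below 0.05. Most EphA and Unc5 receptors lie near 0 in the neuron line and to the left in the astrocyte line.

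Other guidance genes moved in the same comparisons as follows. In the astrocyte line 8 of 46 tested were higher and 19 lower in sorted nuclei (13.7% and 15.4% of all genes), in the oligodendrocyte line 6 and 6 of 45 (5.12% and 3.24%), and in the neuron line 1 and 2 of 44 (1.26% and 5.08%). Rgma was higher in sorted than in presort nuclei of the astrocyte line (2.31 ± 0.37) and lower in those of the neuron line (-1.82 ± 0.39), with adjusted p of 5.33e-05 and 0.00862.

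Presort nuclei of the 3 lines were compared with each other to see whether the lines differed before the sort. In a joint edgeR test over 6048 genes 0% were called, and none of the 46 members tested was, with a smallest adjusted p of 0.999 among members. At an unadjusted p below 0.05 there were 2 members, and 3.37% of all genes. Median total counts of the 3 presort groups were between 234526 and 278948, with 4 libraries each. Differences in low members could thus go unseen, and the test does not show that the lines were alike.

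The last comparison set the 12 presort libraries against the 2 libraries of cytoplasm, which asks where in the cell these RNAs were found. Guidance genes were more often higher than lower in the nuclei. Of 50 members tested 23 were higher and none lower, where 20.1% of all 7727 genes tested were higher and 30.2% lower. Receptors made up 17 of the 23 (of 28 tested) and ligands 6 (of 22 tested). The median log2 fold change was 1.32 for receptors and 0.92 for ligands, and their median spans were 154 and 75.2 kb. The median log2 fold change was 1.16 among members and -0.12 among all genes. At an unadjusted p below 0.05 33 members were higher and 0 lower, where 1808 and 2542 of all genes were. DESeq2 called 30 higher and 0 lower, where it called 1741 and 2280 of all genes. The counts of members called changed when either cytoplasmic library was left out, and a lone library shows no spread of its group. The median shift in log2 fold change over all genes tested in both fits was 0.08 with only cytoplasmic replicate 1 and 0.009 with only replicate 2. The cytoplasmic libraries differ in line and sex, and only their spread stands for the group. Neuron markers summed to 6974 and 12958 CPM in cytoplasm and to between 3199 and 5369 CPM in presort nuclei, cerebellar granule cell markers to 704 and 816 CPM and between 1973 and 6586 CPM, and endothelial markers to 2.69 and 9.27 CPM and between 98.8 and 847 CPM, and the part of cell makeup in this comparison was not tested. CPM is a share of each library's RNA, so these values do not give copies per cell.

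Unc5c measured 269 to 307 CPM in presort nuclei of the neuron line, 256 to 345 CPM in those of the astrocyte line and 239 to 323 CPM in those of the oligodendrocyte line, against 36.98 and 37.1 CPM in cytoplasm (2.35 ± 0.29, adjusted p = 1.16e-06). Plxna2, a receptor of class 6 semaphorins, measured 211 to 309.9, 191 to 318 and 188 to 264 CPM in the same groups against 38.3 and 59.98 CPM in cytoplasm (1.73 ± 0.31, adjusted p = 8.56e-05). Neo1 measured 140.4 to 230.3, 135 to 218 and 208 to 234 CPM against 24.9 and 55.1 CPM (1.74 ± 0.34, adjusted p = 0.000217). For these 3 receptors no presort library was as low as either cytoplasmic one, which their choice required. Dcc followed them (2.35 ± 0.54, adjusted p = 0.00105), as did 6 of 9 plexins and 4 of 5 EphA receptors tested. Among the members not called were the ligands Efnb3 and Sema7a, a GPI-anchored semaphorin. Efnb3 averaged 66.0, 69.8 and 58.1 CPM in presort nuclei of the neuron, astrocyte and oligodendrocyte lines. In cytoplasm it averaged 54.4 ± 15.1 CPM (SD, n = 2) (-0.33 ± 0.35, adjusted p = 0.458). Sema7a averaged 70.8, 77.0 and 68.6 CPM in the same nuclei and 68.6 ± 72.97 CPM in cytoplasm (-0.45 ± 0.39, adjusted p = 0.359). These log2 fold changes are taken after scaling of the libraries, so their sign can differ from that of the CPM means.

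Gene span moved with this comparison over all genes. The share of all tested genes that were higher in nuclei was 15.0% below 10 kb, 18.4% between 10 and 50 kb, 23.2% between 50 and 200 kb and 27.1% above 200 kb. Of the members 0 of 2, 6 of 17, 8 of 16 and 9 of 15 were higher in the same classes, and the median span was 128 kb for members and 33.7 kb for all genes tested. Of the other 48 guidance genes 7 of 43 tested were higher and 13 lower in nuclei, beside 20.1% and 30.2% of all genes, and their median log2 fold change was -0.13. Cdon and Boc, coreceptors of Hedgehog, were higher in nuclei (3.62 ± 0.42 and 3.49 ± 0.55), and the cytoplasmic effectors Dpysl2 and Chn1 lower (-2.48 ± 0.26 and -2.38 ± 0.27).

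**Figure D5:**
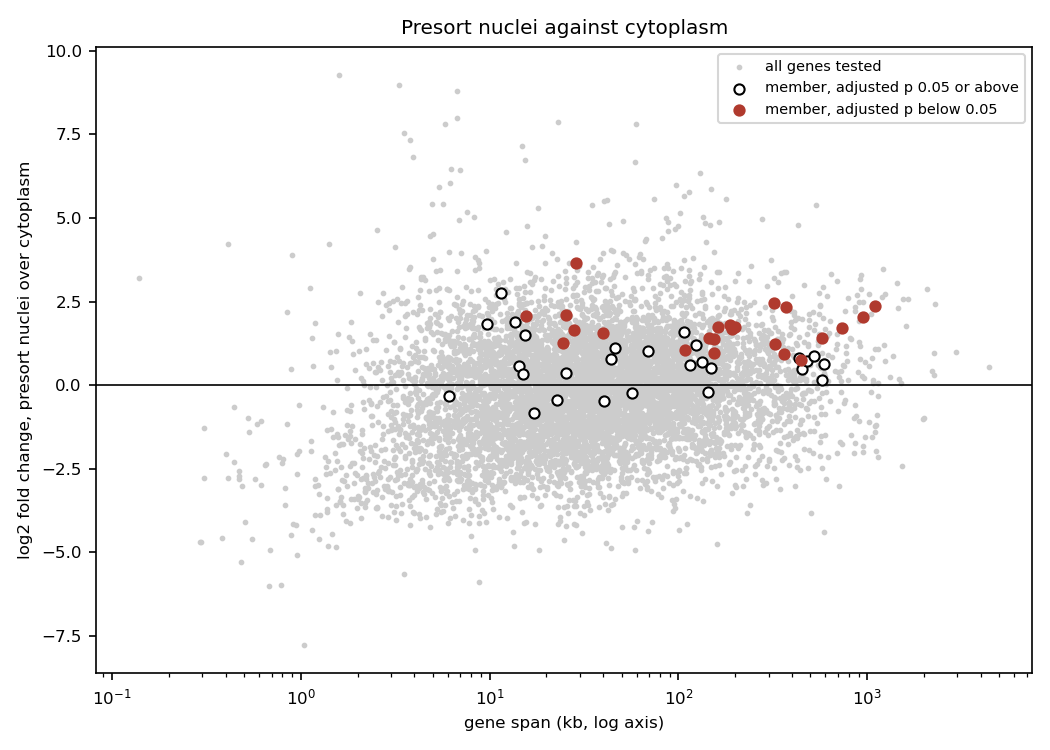
Log2 fold change of presort nuclei over cytoplasm against gene span in kb (log axis) for all genes tested, in grey, and for the 50 members tested, filled where the adjusted p was below 0.05. All filled points lie above 0, at spans from short genes to those over 1000 kb.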

How the data were processed

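RNA of 26 libraries was taken up in Trizol and cleaned of DNA with DNase before amplification with NuGEN's Ovation V2 kit, per the labels' protocols. The submitters' processing notes list the tools bedtools, Bowtie2, edgeR, STAR and Trimmomatic, with no roles. The values in the table that the authors deposited, 1 column per library, were assumed to be raw read counts with no normalization. The sources used here do not give the genome build, the annotation, the counted regions, the strand setting or the way nuclei were sorted, so reads of overlapping genes cannot be told apart. The protocols name no molecular identifiers, and floors (3 counts) and intervals cover counting error only.

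Symbols and positions are those of GENCODE M21 (GRCm38), which held 26574 of 27501 identifiers. The row named GFP was kept out of library sizes and tests. RefSeq (GRCm38.p6) gave a promoter for 59 of 69 members. Tests used edgeR 4.0.16 (quasi-likelihood F, two-sided; R 4.3.3) after TMM scaling and a filter by group at a minimum count of 10. P-values were adjusted by Benjamini and Hochberg's method over all genes tested, at 0.05. Sorted types shared 1 fit of 12 libraries. Each line's sorted and presort libraries were fitted alone, and so were the presort libraries with cytoplasm. SE is the log2 fold change over the square root of F. The script was tested on simulated data. Alternatives were RLE size factors, no filter, DESeq2 1.42.0, each sex alone, the presort libraries of 2 lines only against cytoplasm, and leaving out each library in turn.

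The members were taken by the naming rule alone, without use of their values. That rule, the 48 other guidance genes and the marker lists were drawn up with earlier results of these data known. Values in every library are given for called members whose groups do not overlap, the 5 of lowest adjusted p in each direction between sorted types and the 3 in each other comparison, with partners by group means. Of the other guidance genes the 2 of lowest adjusted p in each direction could be named. Neo1 in the sorted types, Epha1 and Slit3 were given in full after their values were seen.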

Additional observations from a re-analysis of the deposited data

Results flagged for a closer look

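In 6 of 67 groups of 4 libraries checked for the named members, 1 library lay far from the others by Dixon's criterion, which chance alone passes in about 1 in 20 groups. Sorted neuron replicate 2 was the high library for Epha8 (50.9 CPM, the others between 6.87 and 14.1 CPM), for Ephb2 (168 CPM, the others between 58.5 and 63.9 CPM) and for Sema4b (11.7 CPM, the others between 6.68 and 7.06 CPM). Sorted oligodendrocyte replicate 36 was low for Epha7 (3.12 CPM, the others between 12.9 and 14.5 CPM) and high for Unc5b (734 CPM, the others between 396 and 452 CPM). Presort neuron line replicate 25 was low for Epha3 (22.7 CPM, the others between 34.1 and 35.9 CPM).

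For 9 of 11 members given in full in the sorted against presort comparisons, all sorted libraries were above all presort libraries in one line and below them in another. These 11 were chosen as called members whose groups did not overlap in a line, so separation in that line was given by the choice. The share of all genes with the same pattern was not counted. Whether the lines differ was not tested. The log2 fold change of sorted over presort nuclei was positive in the oligodendrocyte line and negative in others for Plxnb3 (4.29, with -3.85 in the neuron line and -1.23 in the astrocyte line), Efnb3 (3.76, with -1.77 and -2.62) and Sema6a (2.51, with -0.61 in the astrocyte line). It was positive in the astrocyte line and negative in the neuron line for Plxnb1 (2.70 and -3.13), Sema4b (2.94 and -2.59, with -2.20 in the oligodendrocyte line) and Sema6d (1.97 and -0.26, with 1.25 in the oligodendrocyte line). It was positive in the neuron line for Epha3 (1.31, with -2.13 in the astrocyte line and -4.22 in the oligodendrocyte line), Epha7 (0.78, with -2.85 and -2.76) and Unc5c (0.45, with -2.23 in the astrocyte line). Of the positive values in the neuron line that of Epha3 passed the test.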

How the results depend on the processing

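No paired analysis was possible because groups compared share at most 1 replicate number and no label says which sorted and presort libraries came from the same mouse. Presort libraries have odd and sorted libraries even numbers, but no label ties consecutive numbers to a mouse, and no pairing was assumed. Among the values of the members given in full under the alternatives, 609 kept their direction and their side of the threshold, 45 no longer passed it and 0 reversed. Of the 45, 30 came from females alone. Without sorted oligodendrocyte replicate 36, an alternative extended to all called members after seeing the data, Epha1 lost its call against neuron nuclei and Slit3 its call against astrocyte nuclei, Epha3 and Sema6b of the oligodendrocyte line were no longer tested, and the other called members of the comparisons of sorted types and of that line kept theirs. Levels under 3 counts in a library could not be told from 0, and the presort libraries limit low members most.

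In females alone the counts of higher and lower members were 0 and 1 for sorted neuron against astrocyte nuclei, 0 and 3 for neuron against oligodendrocyte, 0 and 2 for astrocyte against oligodendrocyte, and 0 and 0 for sorted against presort nuclei of the oligodendrocyte line. Over all genes the same fits called 8 and 38, 9 and 114, 17 and 50, and 0 and 0. Neurons then had 0 members higher than both other sorted types, astrocytes 0 and oligodendrocytes 1, and those lower than both numbered 1, 0 and 0. In males alone the counts of higher and lower members were 0 and 1 in the neuron line, 5 and 18 in the astrocyte line and 9 and 20 in the oligodendrocyte line, with 17 members higher in neurons than in both other types, 10 lower in astrocytes and 9 lower in oligodendrocytes. With no filter on low counts 3 members were higher in the neuron line, 3 lower in the oligodendrocyte line and 1 lower in nuclei than in cytoplasm. DESeq2 gave 3 higher in the neuron line, 18 lower in the oligodendrocyte line, 7 lower in neurons than in both other types and 9 lower in oligodendrocytes than in both. These use fewer samples, another set of genes or another tool, and otherwise the cause was not tested. The share of all genes higher or lower than both other sorted types was not counted in these fits.

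Leaving out 1 library at a time gave 14 to 28 members higher and 9 to 11 lower for sorted neuron against astrocyte nuclei, 16 to 29 and 8 to 13 for neuron against oligodendrocyte, and 6 to 17 and 7 to 17 for astrocyte against oligodendrocyte, each highest without sorted oligodendrocyte replicate 36 (an alternative chosen after seeing the data for neuron against astrocyte). The counts of all genes called in these comparisons were also highest without that library. Neurons had 6 to 20 members higher than both other sorted types, astrocytes 3 to 7 and oligodendrocytes 4 to 7, and those lower than both numbered 4 to 7, 2 to 10 and 2 to 10 in the same order. The share of all genes with these patterns was not counted when a library was left out. Sorted against presort nuclei gave 0 to 3 higher and 4 to 11 lower in the neuron line, 6 to 9 and 13 to 29 in the astrocyte line, and 3 to 10 and 0 to 15 in the oligodendrocyte line. Presort nuclei against cytoplasm gave 19 to 40 higher and 0 to 4 lower, where a lone cytoplasmic library is assumed to vary like the presort groups. The change in log2 fold change from the main fit was also taken for each gene tested in both fits. Without replicate 36 its median over all these genes was -0.32 for neuron and -0.30 for astrocyte over oligodendrocyte nuclei and 0.25 in the oligodendrocyte line. With no filter this median was 0.15 and 0.19 in the neuron and oligodendrocyte lines, and -0.15 in the cytoplasm comparison.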
